A study of Mus musculus with 12 samples.

Results

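The genes described here are the 10 bile acid and sterol transporters Abcb11, Abcb4, Abcg5, Abcg8, Abcc2, Slc10a1, Slco1b2, Slco1a4, Abcc3 and Abcc4, taken by name from the tables of read counts per gene. All 10 are among the 20775 genes of the chow table and the 22709 genes of the HFCF table, and all 10 passed the filter on low counts in every comparison. They fall into 5 genes whose protein sits in the canalicular membrane (Abcb11, Abcb4, Abcg5, Abcg8 and Abcc2) and 5 whose protein sits in the basolateral membrane (Slc10a1, Slco1b2, Slco1a4, Abcc3 and Abcc4). RNA was sequenced from livers of male C57BL/6N mice, with 3 libraries in each of 4 groups. Every mouse carried a floxed Elavl1 allele, the gene of the RNA-binding protein HuR, and per the labels was 4 to 6 months old when injected with virus. The HuRHep-/- mice received AAV8-Tbg-Cre, in which a hepatocyte promoter drives Cre, and the WT mice received AAV8-Tbg-null. Each genotype was fed either chow or, for 16 weeks, the HFCF diet, which holds 40 kcal% fat, 2% cholesterol and 20 kcal% fructose.

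A hepatocyte takes bile acids from sinusoidal blood through its basolateral membrane and secretes them through its canalicular membrane into bile. Phospholipid and cholesterol are secreted across the same canalicular membrane, and together they form the mixed micelles of bile. When bile acids accumulate in the cell, basolateral export pumps can return them to blood. Many of these transporter genes respond to nuclear receptors, among them the bile acid receptor FXR (Nr1h4) and the oxysterol receptor LXR.

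Abcg5 and Abcg8 lie head to head on chromosome 17 and encode partner subunits of one cholesterol and plant sterol pump. In GENCODE vM21 the span of Abcg8 begins at 84676302, inside that of Abcg5. The RefSeq start sites used here are at 84683011 on the minus strand and 84683121 on the plus strand of GRCm38.p6. They are 110 bases apart, so 1 short stretch of DNA lies upstream of both sites. It is shown because reads of the 2 genes moved together but not equally with diet. The stretch chr17:84683011-84683121 is given on the plus strand, with matches to AGATAA and TATAAA on either strand in capitals.
Abcg5 and Abcg8: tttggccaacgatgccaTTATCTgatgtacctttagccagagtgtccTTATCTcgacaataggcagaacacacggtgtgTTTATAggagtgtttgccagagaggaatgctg
A match to AGATAA was held by 11.2% of all 32851 RefSeq promoter windows of 300 bases (250 before to 50 after the start), and a match to TATAAA by 13.6%.

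The window table holds 9 of the 10 genes, and Abcc3 is named only. The nuclear receptor site AGGTCA, read on both strands, is in the window of Abcb11, of Slco1b2, of Abcc2 and of 1 of the 2 Slc10a1 start sites, against 16.3% of all windows. That share is per window, and some members have more than 1 window, so it is not a share of genes. The upstream stretches of Abcb11 (chr2:69342617-69342866, minus strand) and Slco1b2 (chr6:141629268-141629517, plus strand) are shown because both genes were lower on the HFCF diet in livers labelled HuRHep-/-, and capitals mark that site. They are not a sample of the members that fell, since Slco1a4, also lower, has no match in its window, and Abcc2, not called, has one.
Abcb11: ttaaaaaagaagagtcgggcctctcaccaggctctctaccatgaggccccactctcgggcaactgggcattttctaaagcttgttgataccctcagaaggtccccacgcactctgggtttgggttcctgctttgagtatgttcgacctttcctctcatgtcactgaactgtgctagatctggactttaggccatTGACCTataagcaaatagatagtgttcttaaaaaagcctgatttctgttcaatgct
Slco1b2: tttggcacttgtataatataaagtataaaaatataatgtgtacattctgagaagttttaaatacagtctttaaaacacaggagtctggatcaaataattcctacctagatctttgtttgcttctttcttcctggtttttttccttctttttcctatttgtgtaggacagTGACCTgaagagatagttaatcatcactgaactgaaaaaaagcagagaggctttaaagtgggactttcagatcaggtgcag
Paired sites were searched as GGTCA followed by its reverse complement TGACC with 1 base between, and as AGGTCA repeated in the same direction with 1 or 4 bases between. They are in 0.0396%, 0.0396% and 0.0152% of all windows and in no window of the 9 genes, searched without mismatches.

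Abcc4 is shown for the antioxidant response element core TGACNNNGC, searched on both strands, which 12.4% of all windows hold. Both of its RefSeq start sites have 1 match in their window, and Abcc2 has 1 as well. The 250 bases before the upstream start (chr14:118706220-118706469, minus strand) hold it in capitals.
Abcc4: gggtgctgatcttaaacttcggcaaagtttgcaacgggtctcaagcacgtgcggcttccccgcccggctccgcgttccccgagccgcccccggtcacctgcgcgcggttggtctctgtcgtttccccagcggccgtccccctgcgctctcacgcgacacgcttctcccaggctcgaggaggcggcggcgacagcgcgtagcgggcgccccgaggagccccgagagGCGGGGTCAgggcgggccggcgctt
HuR is known for binding AU-rich elements in messenger RNA. In the GENCODE vM21 transcript with the longest coding sequence, the letters ATTTA occur 12 times in the 3186 bases of the Abcc2 3′ UTR, 4 times each in Slco1b2 and Slco1a4, 3 times each in Abcg8 and Abcc4, once each in Abcb11 and Abcc3, and nowhere in Abcb4, Abcg5 or Slc10a1. Over 21760 genes the median was 1 match and the median 3′ UTR length 746 bases, and 58.7% had at least 1 match. All matches divided by all 3′ UTR bases of these genes gave 1.93 per kb, a pooled rate and not a median over genes. The members with a match ran from 1.25 per kb in Abcb11 to 3.84 per kb in Slco1b2.

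The 12 libraries held 30071731 to 35949203 counts. Levels are given as CPM, the count for every 1000000 counts of the library total scaled by TMM factors over all 12 libraries, and as RPKM, the same per kilobase of exon, where genes are set against each other. Gene positions are those of GENCODE vM21 on GRCm38 and cover the whole gene. A gene was called at an adjusted p of at most 0.05 in limma over all genes tested. Elavl1 itself, the gene to be deleted, was higher and not lower in the livers labelled HuRHep-/-. On chow it stood at 30.4 ± 0.946 CPM in WT and 40.2 ± 2.18 CPM in livers labelled HuRHep-/- (SD, n = 3 each), and on HFCF at 25 ± 1.72 and 32.9 ± 1.13 CPM. The log2 differences of 0.41 (adjusted p = 0.0219, limma) and 0.38 (adjusted p = 0.0327) therefore go against the label, and the genotype is used here only as the label gives it. Every genotype difference takes its sign from the labels. Counts summed over the whole gene need not show a deletion of part of it. Each diet is its own table, so diet and table (and any sequencing run that goes with it) cannot be told apart, and the labels give no duration for chow. In bulk liver, fewer cells of a type and less RNA per cell cannot be told apart.

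Per kilobase, the basolateral uptake carriers led. In chow WT livers Slc10a1 stood at 281 ± 18.7 RPKM (SD, n = 3) and Slco1b2 at 157 ± 3.10 RPKM. Abcb11 followed at 67.7 ± 6.17 RPKM, then Abcc3 at 48.1 ± 3.18 and Abcc2 at 37.7 ± 2.87 RPKM. Abcg5 (28.2 ± 6.49), Abcg8 (25.8 ± 4.49) and Abcb4 (22 ± 0.667 RPKM) did not differ beyond their spread. Slco1a4 at 10 ± 3.27 and Abcc4 at 0.255 ± 0.0366 RPKM were lowest. In HFCF livers labelled HuRHep-/- the order of the first 2 was kept at 154 ± 13 and 96.7 ± 6.09 RPKM, whereas Abcg5, at 59.9 ± 7.95 RPKM, stood above Abcb11 at 34.8 ± 4.88 RPKM. In HFCF WT livers these 2 were at 63.5 ± 22.7 and 49.2 ± 5.30 RPKM, which did not differ beyond their spread.

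**Figure D1:**
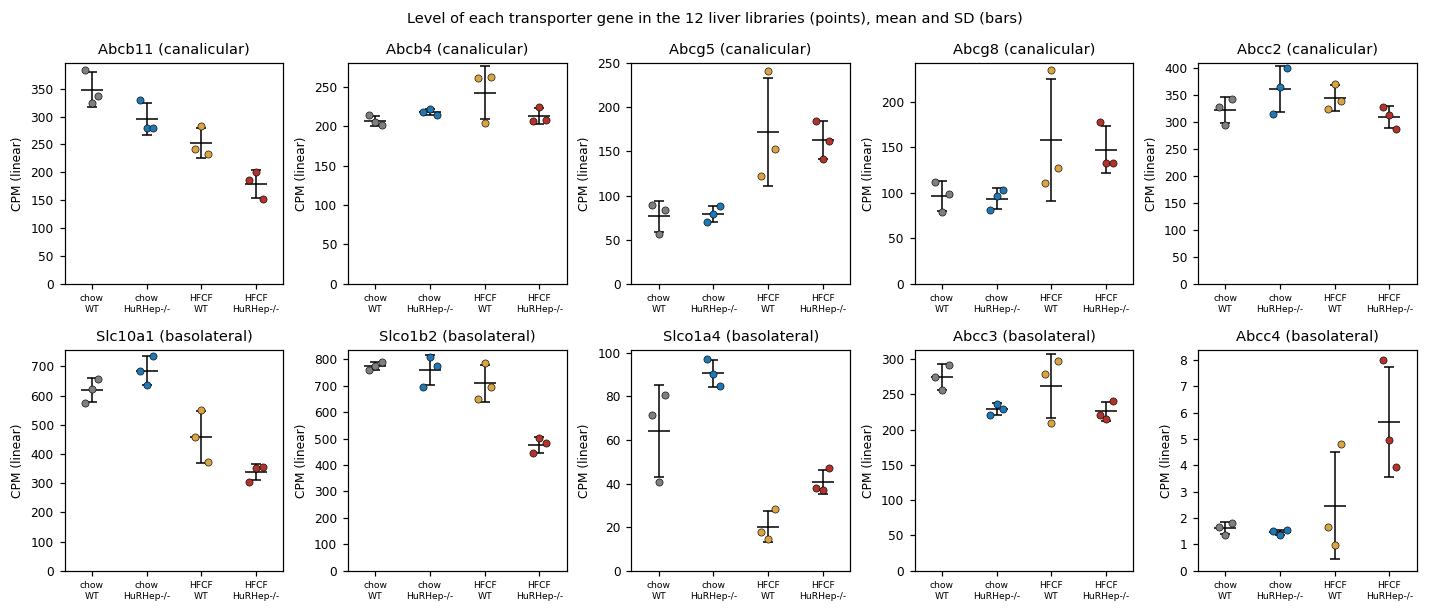
Level of each of the 10 transporter genes in CPM on a linear axis from 0, with 1 point per liver library, for chow and HFCF livers of WT and HuRHep-/- label (n = 3 each), and bars for the mean and SD. Abcg5 is at 122 CPM or above in all 6 HFCF livers and at 89.8 CPM or below in all 6 chow livers, and Abcc4 is at 1.83 CPM or below in all 6 chow livers.

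Between genotypes on chow, 0 of the 10 members were called, where 4.22% of all 13526 genes tested were (571 genes). The tool was limma, and 3 members (Abcb11, Slco1a4 and Abcc3) had an unadjusted p under 0.05, as had 3184 of all genes. Groups did not overlap for 2 of the 10, Slco1a4 and Abcc3, where 29.3% of all genes had groups without overlap. Between genotypes on HFCF, 2 of the 10 were called (Slco1a4 higher, Slco1b2 lower in livers labelled HuRHep-/-), where 6.84% of 14295 genes were, and 4 of the 10 did not overlap, where 36.2% of genes did not.

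The diet comparisons come from 1 fit over 12 libraries and the genotype comparisons from 6 libraries each, so their counts are not set against each other. In the 12-library fit 4 of 10 were called between genotypes on HFCF, against 11.1% of genes. The genotype and diet comparisons share groups of libraries. In WT livers 4 of 10 were called (Abcg5 up, Abcb11, Slc10a1 and Slco1a4 down), against 24.2% of 14535 genes, and 4 of 10 did not overlap, against 37.6%. In livers labelled HuRHep-/- 7 of 10 were called (Abcg5, Abcg8 and Abcc4 up, Abcb11, Slc10a1, Slco1b2 and Slco1a4 down), against 38.9%, and those 7 did not overlap, against 54.6%. The median log2 difference over the 10 was 0.03 for genotype on chow, -0.19 for genotype on HFCF, 0.01 for diet in WT and -0.13 for diet in livers labelled HuRHep-/-, and over all genes it was within 0.01 of 0 in each of them. Directions depended on scaling. The TMM factors ran from 0.882 to 0.990 on chow and from 0.974 to 1.14 on HFCF. With library totals alone the median of all genes for genotype moved to 0.09 on chow and 0.15 on HFCF, and the share of calls that were higher went from 54.5% to 73% and from 42.3% to 81.2%. The members called on HFCF stayed Slco1a4 and Slco1b2, while the median over the 10 became 0.11 on chow and -0.03 on HFCF, with 6 rather than 8 members below 0 on HFCF. For diet the median of all genes moved to 0.19 in WT and 0.23 in livers labelled HuRHep-/-, the share of calls that were higher went from 46.9% to 82.4% and from 50.8% to 84.4%, and the median over the 10 became 0.19 and 0.10. The WT members called became 5, with 4 up (Abcb4, Abcg5, Abcg8 and Abcc2) and 1 down (Slco1a4), against 28.3% of all genes.

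**Figure D2:**
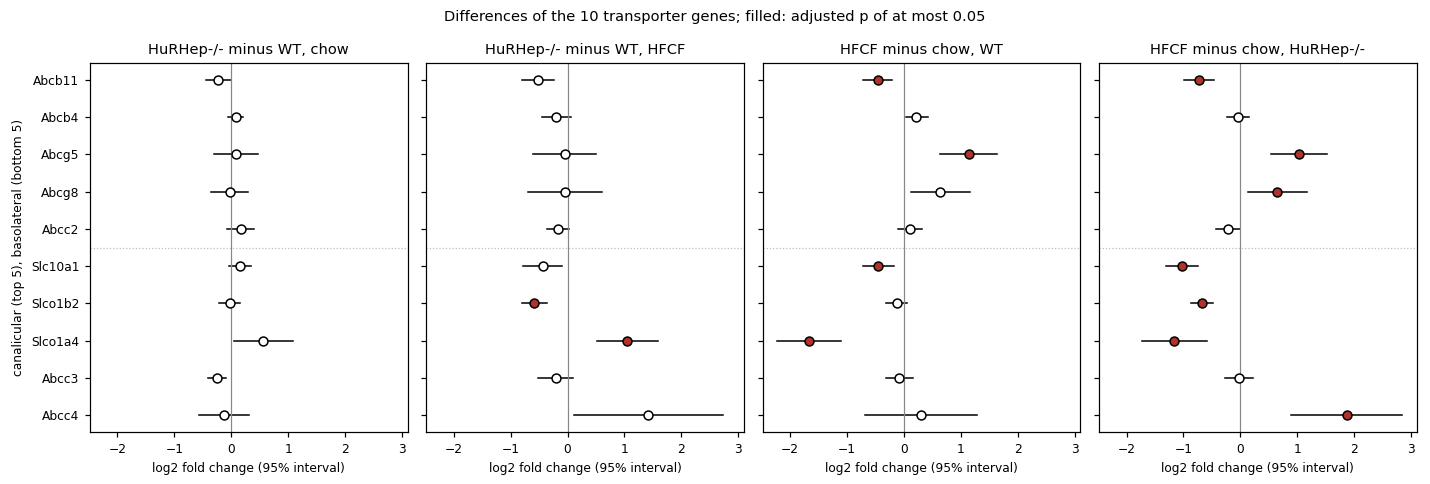
Log2 fold change with its 95% interval for each gene (rows, canalicular above the dotted line) in 4 comparisons, with filled points for genes at an adjusted p of at most 0.05. The chow genotype panel has no filled point, the HFCF genotype panel has 2, and the diet panels have 4 and 7.

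Slc10a1 (ENSMUSG00000021135, chr12:80953183-80968705, minus strand) encodes NTCP, the sodium-dependent carrier that takes up most conjugated bile acids. It stood at 576, 623 and 658 CPM in chow WT livers and at 685, 636 and 734 CPM in chow livers labelled HuRHep-/-. On HFCF it was at 457, 550 and 372 CPM in WT and at 305, 353 and 355 CPM in livers labelled HuRHep-/-. All 6 HFCF livers lay below all 6 chow livers, and the HFCF genotypes did not overlap. With diet it fell by 0.45 on the log2 scale in WT (SE 0.13, adjusted p = 0.0245, limma) and by 1.02 in livers labelled HuRHep-/- (SE 0.13, adjusted p = 0.000283). The WT fall lost its call without chow WT replicate 3 (adjusted p = 0.083) or without HFCF WT replicate 1 or 3 (0.0586 and 0.0857, the last at -0.30), and with library totals alone it was -0.27 (adjusted p = 0.089). The genotype difference on HFCF was -0.44 (SE 0.15, adjusted p = 0.102) and was called without HFCF WT replicate 3, at -0.58 (adjusted p = 0.0363), and in 1 fit over 12 libraries, at -0.43 (adjusted p = 0.0486). It was uncalled in the other 5 fits that left out 1 library, down to -0.31 in size with an adjusted p up to 0.272, and with library totals alone, at -0.29 (adjusted p = 0.151). On chow the genotype difference was 0.15 (adjusted p = 0.315).

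Slco1b2 (ENSMUSG00000030236, chr6:141629518-141686646, plus strand) encodes OATP1B2, the main sodium-independent uptake carrier for bile acids and bilirubin in mouse liver. It ran from 696 to 807 CPM in the 6 chow livers and from 648 to 786 CPM in the 3 HFCF WT livers, but stood at 444, 502 and 484 CPM in the HFCF livers labelled HuRHep-/-. Those 3 livers were below every other library. Between genotypes on HFCF it was lower by 33.4% (log2 difference -0.59, SE 0.094, adjusted p = 0.0235, limma), and on chow the log2 difference was -0.02 (adjusted p = 0.878). The HFCF difference stayed between -0.64 and -0.51 when any 1 of the 6 libraries was left out. The call was lost without HFCF WT replicate 1 (adjusted p = 0.0585) and without replicate 1, 2 or 3 of the HFCF livers labelled HuRHep-/- (0.109, 0.0836 and 0.0697). With diet it fell by 0.67 in livers labelled HuRHep-/- (SE 0.087, adjusted p = 0.000361), and in WT the log2 difference was -0.13 (adjusted p = 0.3). With library totals alone these were -0.44 (adjusted p = 0.00109) and 0.05 (adjusted p = 0.634). With TMM factors, the difference between the 2 diet differences, -0.67 and -0.13, was -0.54 (SE 0.12, 95% interval -0.81 to -0.27). It had the smallest p among the members for a genotype by diet term but was not a call (adjusted p = 0.136, limma).

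Slco1a4 (ENSMUSG00000030237, chr6:141805440-141856199, minus strand) encodes OATP1A4, a broad organic anion carrier. Chow WT livers held 71.4, 40.5 and 80.5 CPM and chow livers labelled HuRHep-/- 96.9, 90.1 and 84.5 CPM. On HFCF it was at 17.6, 14.6 and 28.2 CPM in WT and at 38, 37 and 47.3 CPM in livers labelled HuRHep-/-. In both diets every liver labelled HuRHep-/- stood above every WT liver. The genotype difference on HFCF was 2.07-fold (log2 1.05, SE 0.23, adjusted p = 0.044, limma), and on chow 1.48-fold without a call (log2 0.56, SE 0.23, adjusted p = 0.189). Without chow WT replicate 2, the lowest chow library at 40.5 CPM, the chow difference was 0.26 (adjusted p = 0.124). The HFCF call was lost without HFCF WT replicate 1 or 2 (adjusted p = 0.115 and 0.0663) and without replicate 1, 2 or 3 of the HFCF livers labelled HuRHep-/- (0.142, 0.118 and 0.127), with the log2 difference between 0.85 and 1.33. With diet it fell by 1.67 in WT (SE 0.26, adjusted p = 0.00152) and by 1.16 in livers labelled HuRHep-/- (SE 0.26, adjusted p = 0.00511), and both calls held whichever of the 12 libraries was left out. Of the 31-base words in its longest transcript, 8.49% also occur in transcripts of other genes, 5.75% in Slco1a5, so a small part of its reads could be split with its paralogs.

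Abcc3 (ENSMUSG00000020865, chr11:94343295-94392997, minus strand) encodes MRP3, a basolateral pump that exports glucuronides and bile acids to blood. It stood at 275, 256 and 292 CPM in chow WT livers and at 221, 237 and 230 CPM in chow livers labelled HuRHep-/-, with no overlap. The log2 difference was -0.25 (SE 0.069, adjusted p = 0.0831, limma), the smallest p of the 10 on chow. On HFCF the WT livers spread from 210 to 297 CPM around livers labelled HuRHep-/- at 216 to 241 CPM, and the difference was -0.21 (adjusted p = 0.31). It ran from -0.11 without HFCF WT replicate 3 (adjusted p = 0.613) to -0.37 without HFCF WT replicate 2, where it was called (adjusted p = 0.0416), and was -0.06 with library totals alone. Neither diet difference was called, at -0.08 in WT and -0.02 in livers labelled HuRHep-/- (adjusted p = 0.629 and 0.897).

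Abcc4 (ENSMUSG00000032849, chr14:118482692-118706219, minus strand) encodes MRP4, a basolateral pump that co-exports bile acids with glutathione. It had only 41 to 56 reads in each chow liver. On HFCF it had 63, 32 and 151 reads in WT livers and 321, 192 and 147 in livers labelled HuRHep-/-, which is 1.66, 0.977 and 4.80 CPM against 8, 4.98 and 3.96 CPM. HFCF WT replicate 3 stood inside the range of the livers labelled HuRHep-/-. With diet it rose 3.66-fold in livers labelled HuRHep-/- (log2 1.87, SE 0.45, adjusted p = 0.00759, limma), a call that held without any 1 of the 12 libraries, and in WT the log2 difference was 0.30 (SE 0.45, adjusted p = 0.667), which turned to -0.34 without HFCF WT replicate 3 and was 0.80 without HFCF WT replicate 2. The genotype difference on HFCF was 1.42 (SE 0.56, adjusted p = 0.144) and ran from 0.91 without HFCF WT replicate 2 to 2.06 without HFCF WT replicate 3, the 1 fit in which it was called (adjusted p = 0.0317). The genotype by diet term was 1.57 (SE 0.64, adjusted p = 0.296).

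Abcb11 (ENSMUSG00000027048, chr2:69238282-69342616, minus strand) encodes BSEP, the canalicular pump that secretes bile salts. It stood at 384, 324 and 337 CPM in chow WT livers and at 329, 279 and 279 CPM in chow livers labelled HuRHep-/-. On HFCF it was at 242, 284 and 232 CPM in WT and at 186, 200 and 151 CPM in livers labelled HuRHep-/-. The group means descended in that order, with overlap between the genotypes on chow and none on HFCF. With diet it fell by 0.46 in WT (SE 0.12, adjusted p = 0.0155, limma) and by 0.73 in livers labelled HuRHep-/- (SE 0.12, adjusted p = 0.000963). The WT call was lost without chow WT replicate 1 (adjusted p = 0.066), without HFCF WT replicate 1 or 3 (0.0509 and 0.0605), and with library totals alone, at -0.28 (adjusted p = 0.071). The genotype difference was -0.23 on chow (SE 0.094, adjusted p = 0.193). On HFCF it was -0.52 (SE 0.12, adjusted p = 0.0525), past the threshold in 1 fit over 12 libraries, at -0.50 (adjusted p = 0.0222), and with a replicate block (adjusted p = 0.0249). It was uncalled in all 6 fits that left out 1 library, from -0.60 to -0.40 (adjusted p from 0.0503 to 0.15), and with library totals alone, at -0.37 (adjusted p = 0.0684). An antisense gene, Gm13613, covers 2.64% of its exon bases.

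Abcb4 (ENSMUSG00000042476, chr5:8893717-8959231, plus strand) encodes MDR2, the floppase that brings phosphatidylcholine into bile and so buffers bile salts. It ran from 202 to 222 CPM over the 6 chow livers and from 204 to 262 CPM over the 6 HFCF livers. None of its 4 differences was called, and they ran from -0.20 for genotype on HFCF (adjusted p = 0.266, limma) to 0.22 for diet in WT (adjusted p = 0.0899). Without HFCF WT replicate 2 both of those were called, at -0.32 (adjusted p = 0.0449) and 0.34 (adjusted p = 0.00257), and without HFCF WT replicate 1 they were -0.12 and 0.16. HFCF WT replicate 2 held 204 CPM, against 262 and 262 CPM in the other WT livers on HFCF. Of its 31-base words, 5.80% occur in other genes, mostly Abcb1a.

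Reads of Abcb11 per read of Abcb4 were 1.58 to 1.80 in chow WT livers, 1.26 to 1.51 in chow livers labelled HuRHep-/-, 0.886 to 1.39 in HFCF WT livers and 0.728 to 0.902 in HFCF livers labelled HuRHep-/-. This ratio needs no scaling between libraries, was chosen after its values were seen, and has no test. The HFCF WT livers split into 0.926 and 0.886 against 1.39 in replicate 2.

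Abcc2 (ENSMUSG00000025194, chr19:43782192-43840740, plus strand) encodes MRP2, the canalicular pump for bilirubin glucuronides, glutathione and conjugated drugs. Its levels ran from 286 to 401 CPM over all 12 livers. None of its 4 differences was called, with log2 values from -0.22 for diet in livers labelled HuRHep-/- (SE 0.097, adjusted p = 0.0943, limma) to 0.17 for genotype on chow (adjusted p = 0.356). The first was called without chow replicate 1 of the livers labelled HuRHep-/-, at -0.32 (adjusted p = 0.0263), and was 0.01 with library totals alone, where the diet difference in WT was called, at 0.28 (adjusted p = 0.0177). The genotype by diet term was -0.32 (95% interval -0.62 to -0.02, adjusted p = 0.321).

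Abcg5 (ENSMUSG00000040505, chr17:84658234-84683011, minus strand) stood at 89.8, 56.5 and 83.2 CPM in chow WT livers and at 69.7, 79.5 and 88.3 CPM in chow livers labelled HuRHep-/-. On HFCF it was at 122, 241 and 153 CPM in WT and at 184, 141 and 162 CPM in livers labelled HuRHep-/-. The 2 diets did not overlap in either genotype. With diet it rose 2.20-fold in WT (log2 1.14, SE 0.23, adjusted p = 0.00518, limma) and 2.05-fold in livers labelled HuRHep-/- (log2 1.04, SE 0.23, adjusted p = 0.00489), and both calls held without any 1 of the 12 libraries. Genotype differences were 0.08 on chow (95% interval -0.31 to 0.47) and -0.05 on HFCF (95% interval -0.60 to 0.50), neither called (adjusted p = 0.816 and 0.91), and either sign was found when 1 library was left out.

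Abcg8 (ENSMUSG00000024254, chr17:84676302-84700333, plus strand) followed its partner at a smaller size. It stood at 112, 78.8 and 98.6 CPM in chow WT livers, at 80.8, 96.1 and 104 CPM in chow livers labelled HuRHep-/-, at 111, 235 and 128 CPM in HFCF WT livers and at 178, 133 and 132 CPM in HFCF livers labelled HuRHep-/-. HFCF WT replicate 1 lay inside the chow WT range, and replicate 2 was the highest of all 12. The diet difference was 0.65 in livers labelled HuRHep-/- (SE 0.24, adjusted p = 0.0497, limma) and 0.64 in WT (SE 0.24, adjusted p = 0.0718). The first call sits at the threshold. It was lost with no filter on low counts (adjusted p = 0.0637), with a replicate block (0.0694) and in 9 of the 12 fits that left out 1 library. Those were the fits without chow WT replicate 1 or 3 (adjusted p = 0.0543 and 0.0636), without chow replicate 1, 2 or 3 of the livers labelled HuRHep-/- (0.144, 0.0886 and 0.0688), without HFCF WT replicate 3 (0.0517) and without HFCF replicate 1, 2 or 3 of the livers labelled HuRHep-/- (0.168, 0.0728 and 0.07). The WT difference ran from 0.32 without HFCF WT replicate 2 (adjusted p = 0.189) to 0.86 without HFCF WT replicate 1, where it was called (adjusted p = 0.0353), and was called with library totals alone, at 0.82 (adjusted p = 0.0168). Genotype differences were -0.03 on chow (adjusted p = 0.913) and -0.05 on HFCF (adjusted p = 0.931), and either sign was found when 1 library was left out.

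Reads of Abcg8 per read of Abcg5 were 1.16 to 1.39 in all 6 chow livers and 0.819 to 0.974 in all 6 HFCF livers. The ratio was chosen after its values were seen and is a description, with no test. The 2 genes share 82 exon bases on opposite strands, 3.02% of those of Abcg5 and 2.19% of those of Abcg8. Across the 12 libraries their log2 CPM had a Pearson r of 0.95, the highest of any pair of members, over points that share the diet groups.

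Summed per kilobase, the 5 basolateral genes went from 497 ± 23.9 RPKM in chow WT livers and 520 ± 21.4 in chow livers labelled HuRHep-/- to 402 ± 42.2 in HFCF WT livers and 297 ± 19.4 in HFCF livers labelled HuRHep-/- (SD, n = 3 each). The 5 canalicular genes stood at 181 ± 19.1, 177 ± 6.56, 221 ± 44.8 and 193 ± 16.8 RPKM in the same order. The canalicular share of the summed level was thus 24.7% to 29.5% in the 6 chow livers and 32.4% to 43.6% in the 6 HFCF livers. Slc10a1 and Slco1b2 make up most of the basolateral sum.

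**Figure D3:**
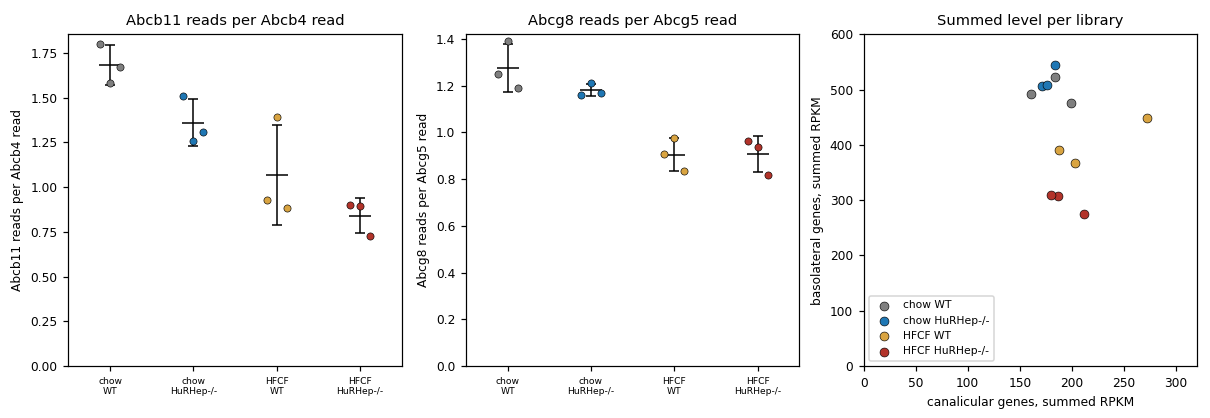
Left and middle, reads of Abcb11 per read of Abcb4 and of Abcg8 per read of Abcg5 in each liver (points) with mean and SD (bars), on linear axes from 0. Right, summed RPKM of the 5 basolateral genes against the 5 canalicular genes, 1 point per library, where the 3 HFCF livers labelled HuRHep-/- have the lowest basolateral sums, 275 to 310 RPKM.

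Whether the genotype difference itself changed with diet was tested as 1 term over the 12 libraries. It was called for 0 of the 10 members and for 0% of 14535 genes in limma, with 2084 genes at an unadjusted p under 0.05 and 1 gene called by voom weights. Without HFCF WT replicate 3, 41 genes were called, none of them a member. Library totals alone gave 11 calls, and no filter beyond 1 count gave 1. Leaving out chow WT replicate 2 gave 2, and leaving out chow replicate 3 of the livers labelled HuRHep-/- gave 1, again with no member. Estimates for the members ran from -0.58 for Slc10a1 (SE 0.18, adjusted p = 0.209) to 1.57 for Abcc4. The genotype calls of Slco1b2 and Slco1a4 on HFCF are therefore not shown to differ from chow.

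Other transporters and helpers of the same membranes were counted from a list made for comparison. For this and every later list, markers included, the share of all genes called was 4.22% for genotype on chow and 6.84% on HFCF. For diet it was 24.2% in WT and 38.9% in livers labelled HuRHep-/-. Of 7 other canalicular genes, 0 were called between genotypes on chow and 3 were lower in HFCF livers labelled HuRHep-/-. These were Abcg2, a broad efflux pump, at -0.37 (SE 0.064), Tmem30a, the chaperone of canalicular lipid flippases, at -0.31 (SE 0.059), and the copper pump Atp7b at -0.34 (SE 0.07), with adjusted p of 0.0269, 0.0343 and 0.038 (limma). With diet 3 were higher in WT, among them Abcg2 at 0.47 and Abcb1a at 0.92, and in livers labelled HuRHep-/- 2 were higher (Abcg2 and Abcb1a) and Tmem30a was lower, at -0.55.

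Of the other basolateral genes, 0 of 8 tested were called between genotypes on chow and 1 of 9 on HFCF, Slco2b1 at -0.45 (SE 0.1, adjusted p = 0.0459, limma). With diet, 2 of 9 rose and 1 fell in WT, and 1 rose and 2 fell in livers labelled HuRHep-/-. Slco1a1, another organic anion carrier, fell by 3.11 with diet in livers labelled HuRHep-/- (SE 0.54, adjusted p = 0.00137), and the prostaglandin carrier Slco2a1 fell in both, by 1.71 and 1.46. Slc51b, a subunit of the basolateral exporter OSTα-OSTβ, was called higher in WT (adjusted p = 0.0155, limma) from levels near the limit of counting, 0.0329 to 0.1 CPM on chow and 0.183 to 0.635 CPM on HFCF, so no fold is given. Slc51a was too low to test. Of 10 genes for membrane anchoring and apical trafficking, 0 were called between genotypes in either diet. With diet 3 rose and 1 fell in each genotype, among them the membrane fusion gene Stx3 up in both and Rdx, the radixin that holds canalicular transporters at the membrane, down by 0.43 in WT and 0.48 in livers labelled HuRHep-/-.

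Among 14 nuclear receptors and bile acid sensors, 0 were called between genotypes in either diet. With diet, 2 rose and 3 fell in WT and 1 rose and 5 fell in livers labelled HuRHep-/-. FXR (Nr1h4) fell in both, by 0.50 in livers labelled HuRHep-/- (SE 0.082, adjusted p = 0.000989, limma), Hnf4a fell in both, by 0.51 in WT (SE 0.087), and Nfe2l2, the gene of NRF2, rose by 0.36 and 0.40. Of 7 FXR targets other than transporters, 2 rose and 2 fell with diet in WT and 2 rose and 3 fell in livers labelled HuRHep-/-, while 1 fell between genotypes in each diet (Fetub on chow, Ugt2b34 on HFCF). Of 7 LXR targets other than Abcg5 and Abcg8, 3 rose and 0 fell with diet in each genotype, with Srebf1 up by 1.73 and 1.66 and Scd1 by 1.78 and 3.12. Between genotypes Scd1 was lower on chow, at -1.59 (SE 0.28), and 0 of 7 were called on HFCF.

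Of 13 genes of bile acid synthesis and conjugation, 1 was higher (Hsd3b7, 0.41) and 1 lower (Slc27a5, -0.39) between genotypes on chow, and 0 were higher and 4 lower on HFCF. The 4 were Cyp8b1 at -1.09 (SE 0.19), which sets the cholic acid share, Cyp27a1 at -0.65 (SE 0.11), the conjugating enzyme Baat at -0.40 (SE 0.091) and the sulfotransferase Sult2a8 at -2.06 (SE 0.38), with adjusted p of 0.029, 0.0237, 0.0464 and 0.0311 (limma). With diet 2 fell in WT (Cyp39a1 and Cyp7b1) and 7 fell in livers labelled HuRHep-/-, where 12.8% and 19.1% of all genes were called lower. Of 7 genes of lipoprotein and sterol uptake, 0 were called between genotypes on HFCF, and Npc1 fell with diet by 0.45 in WT and 0.84 in livers labelled HuRHep-/-. Of 8 SREBP2 targets, 3 fell with diet in WT and 7 in livers labelled HuRHep-/-, with Idi1 down by 2.52 and 2.85.

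NRF2 targets, to which Abcc2, Abcc3 and Abcc4 are often added, had 0 of 7 called between genotypes on chow and 1 of 8 on HFCF (Txnrd1, -0.37). With diet 2 of 8 rose in WT, Nqo1 and Srxn1, and 4 rose and 2 fell in livers labelled HuRHep-/-. Of 7 CAR and PXR targets, 1 was lower between genotypes on chow (Ces2a) and 0 were called on HFCF, while with diet 4 fell in WT and 2 rose and 4 fell in livers labelled HuRHep-/-. Of 13 acute phase genes, 4 were higher and 1 lower between genotypes on chow, with Saa1 at 4.01 (SE 0.64), and 1 was lower on HFCF, Hpx at -1.61 (SE 0.1). With diet 2 rose and 3 fell in WT, and 1 rose and 7 fell in livers labelled HuRHep-/-.

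By Pearson r of log2 CPM over the 12 libraries, against 10198 other genes of at least 100 mean counts, the 2 genes most like each member were Slc16a10 (0.98) and Zfp318 (0.97) for Abcb11, Coq5 (0.98) and Dbt (0.97) for Slc10a1, Psd3 and Sult2a8 (both 0.97) for Slco1b2, and Cd47 (0.96) and Aprt (0.95) for Slco1a4. Abcg5 was nearest to Yif1a (0.94) and Srebf1 (0.93), Abcg8 to Mesd (0.91) and Yif1a (0.90), and Abcc4 to Gstm3 (0.96) and Abracl (0.95). The members with little movement had weaker neighbours, Ebag9 (0.90) and Gmfb (0.89) for Abcc3, Spcs3 (0.87) and Spop (0.85) for Abcc2, and Tmem56 (0.86) and Sh3bgrl2 (0.83) for Abcb4. Among the members, Abcb11, Slc10a1 and Slco1b2 had r of 0.84 to 0.87 with each other, and Abcc4 had r of -0.88 with Slc10a1. These values describe 12 points that share 4 groups.

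Markers of other cell types and zones were counted beside the transporters, and of the cell type lists none had a gene called between genotypes on chow. The 7 hepatocyte markers had 0 called between genotypes in either diet and 2 lower with diet in each genotype, and their summed level ran from 85200 to 106000 CPM in chow WT, 68800 to 76400 in chow livers labelled HuRHep-/-, 62100 to 67300 in HFCF WT and 56800 to 61600 in HFCF livers labelled HuRHep-/-. Most of this hepatocyte sum was Alb, at 63400 to 79600 CPM in chow WT livers and 49400 to 55200 CPM in chow livers labelled HuRHep-/-. That difference of Alb was not called (adjusted p = 0.359, limma). Of 6 cholangiocyte markers tested, Krt19 and Krt7 were higher between genotypes on HFCF and 6 rose with diet in livers labelled HuRHep-/-, where the listed markers summed to 159 to 267 CPM against 44.8 to 112 CPM in the other 3 groups. Most of that sum was Spp1, at 115 to 215 CPM in HFCF livers labelled HuRHep-/-, while Krt19 there was at 3.58 to 4.16 CPM and Krt7 at 3.62 to 5.36 CPM. Of 6 stellate markers, 1 rose with diet in WT and 6 in livers labelled HuRHep-/-, summing to 353 to 445 CPM there, 161 to 364 CPM in HFCF WT and 124 to 192 CPM on chow.

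Of 6 recruited macrophage markers, 3 rose with diet in WT and 5 in livers labelled HuRHep-/-, and Cd9 was higher between genotypes on HFCF. They summed to 58.5 to 88.6 CPM in HFCF livers labelled HuRHep-/-, 15.9 to 64.8 CPM in HFCF WT and 18.4 to 32.1 CPM on chow. Of 6 Kupffer cell markers 2 rose with diet in each genotype. They summed to 116 to 145 CPM in chow WT and 168 to 247 CPM in chow livers labelled HuRHep-/-. On HFCF the sums were 183 to 286 CPM in WT and 239 to 416 CPM in livers labelled HuRHep-/-. Between genotypes all 6 estimates were above 0 in each diet, with 0 called. Of 6 endothelial markers 0 were called in WT and 1 rose with diet in livers labelled HuRHep-/- (summed level 86.7 to 116 CPM over all groups), and of the lymphocyte markers 4 of 6 rose there (4.71 to 5.99 CPM, against 2.11 to 3.53 CPM in the other groups).

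Zonal genes moved in both directions. Of 7 pericentral genes, Glul was higher on chow and Cyp2e1 and Cyp27a1 lower on HFCF between genotypes, and with diet 2 rose and 1 fell in WT and 1 rose (Lect2) and 3 fell in livers labelled HuRHep-/- (summed level 8100 to 9430 CPM there, 10300 to 13700 CPM elsewhere). Most of this pericentral sum was Cyp2e1, at 4290 to 5900 CPM in HFCF livers labelled HuRHep-/- and 6380 to 9570 CPM in the other groups. Of 6 periportal genes, Aldh1b1 was higher between genotypes in both diets, 3 fell with diet in WT, and 3 fell and 1 rose in livers labelled HuRHep-/- (2450 to 6980 CPM over all groups). The part of cell composition in the transporter differences was not tested.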

How the data were processed

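RNA-seq of 12 mouse livers was used, 3 in each group. Per the study's methods for the chow livers, the authors aligned reads to GRCm38.p6 in CLC Genomics Workbench with a reverse strand setting. The deposited values are read counts per gene without normalization, written as text. Commas stood in 21506 chow values and 23123 HFCF values and were removed, which left whole numbers. Because of the commas the unit was treated as unchecked, and no count model was fitted. Counts became log2 CPM with a pseudocount of 0.5 and TMM factors (trims 0.3 and 0.05, written anew). Genes were kept with a CPM worth 10 counts at median depth in at least 3 libraries, and 15 counts in total. limma 3.58.1 with a variance trend (R 4.3.3) was fitted across all genes, per table for genotype and over 12 libraries for diet and the genotype by diet term, with Benjamini-Hochberg adjustment. Whole numbers would also have allowed a quasi-likelihood count test, which was not run. The fits were also run on simulated counts, whose outcome is not reported here and is not used as support. RPKM used GENCODE vM21 exon lengths. The labels do not say whether replicates came from separate cohorts, and each was taken as 1 mouse. The p-values measure the spread between these samples, which may be technical. With 3 against 3, an exact permutation test cannot go below p = 0.1, so none is given. The study's methods describe another Cre than the labels, which were followed. Members and gene lists were chosen with earlier results of these data known. All 10 members, Elavl1, list counts with up to 3 called genes of smallest p, and the 2 nearest genes by correlation were named. Baat on HFCF, Nr1h4 in WT, and Hnf4a and Stx3 in livers labelled HuRHep-/- were named beyond that rule, after their values were seen. So were Spp1 and Alb, as the largest part of a summed marker level. Results for some listed genes are not reported here. Alternatives were other scalings, filters, pseudocount and weights, a replicate block, a fold limit and leaving out each library.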

Additional observations from a re-analysis of the deposited data

How the results depend on the processing

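Calls of members between genotypes on HFCF, 2 of 10, became 4 in 1 fit over 12 libraries (11.1% of genes called, Slco1a4 up, Abcb11, Slc10a1 and Slco1b2 down) and ranged from 0 to 4 when 1 library was left out, with 0 without HFCF WT replicate 1 or any of the 3 livers labelled HuRHep-/-. Of all genes, 28 to 1276 were called in those 6 fits, against 978, and 9 to 535 for genotype on chow, against 571. Calls for diet in WT, 4 of 10, became 2 with a fold of at least 1.5 and at least 10 counts in each group added (9.41% of genes called), where the count minimum stands in for the RPKM minimum of the study's methods, and ranged from 2 to 5 when 1 library was left out, with 2 without HFCF WT replicate 3, against 13.7% to 27.3% of all genes. For diet in livers labelled HuRHep-/-, 7 of 10, the range was 6 to 7, against 28% to 41.1% of all genes, and for genotype on chow and the genotype by diet term it was 0 to 0. The cause was not tested. The replicate numbers did not pair the samples (correlations of deviations from -0.14 to 0.19), and the replicate block gave 0, 3, 4, 6 and 0 members called for genotype on chow, genotype on HFCF, diet in WT, diet in livers labelled HuRHep-/- and the genotype by diet term, against 2.51%, 9.38%, 24.6%, 39.3% and 0% of all genes, with Abcb11 gained (adjusted p = 0.0249, limma) and Abcg8 lost (adjusted p = 0.0694). Library totals alone were added after seeing the data. Of 950 single-gene values under alternatives, 868 kept direction and call, 30 lost the call, 13 gained it, and 39 uncalled values changed sign, with 0 called values reversed. On each table's own scale the genotype groups of Abcb4 on chow and Abcc2 on HFCF also did not overlap. Depth limits Abcc4, at 32 to 321 reads a library.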
